A study of Mus musculus with 4 samples.

Results

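The genes of classical MHC class I presentation are a set of 10, listed by their known role: the heavy chain genes H2-K1 and H2-D1, the light chain gene B2m, the peptide transporter and loading genes Tap1, Tap2 and Tapbp, the immunoproteasome genes Psmb8, Psmb9 and Psmb10, and the regulator gene Nlrc5. All 10 were found among the 55421 genes of the count tables, and all 10 were among the 14492 genes that reached 1 CPM (counts scaled to the library total) or more in at least 2 libraries. RNA from uterine lysates of pregnant mice at E18.5 was sequenced in 2 WT mice (strain C57BL/6J) and 2 Qa-2- mice (strain B6.Cg-H2b3/FlaCmwJ, also named B6.K1). The Qa-2- strain is an H2 congenic strain that arose from crosses between congenic lines and lacks the class Ib antigen Qa-2. It is therefore not a targeted knockout, and any other difference that the strain carries within H2 or elsewhere cannot be told apart from the loss of Qa-2. The strains came from different suppliers and both were mated within their strain. Per the study's methods, RNA came from a small amount of frozen uterine tissue, and which part of the uterus it was is not stated. Cell types were not separated, so that fewer cells of a type and less RNA per cell cannot be told apart.

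MHC class I molecules carry peptides from inside the cell to its surface, where cytotoxic T-cells and NK-cells read them. A heavy chain, such as the product of H2-K1 or H2-D1, pairs with β2-microglobulin, the product of B2m, and with a peptide. Peptides are cut by the proteasome, whose catalytic subunits can be replaced by the interferon-inducible subunits encoded by Psmb8, Psmb9 and Psmb10. TAP, a dimer of the Tap1 and Tap2 products, pumps peptides into the endoplasmic reticulum, and tapasin, the product of Tapbp, holds the empty class I molecule at TAP. NLRC5 is a transactivator that is recruited to the promoters of class I heavy chain genes and of genes that act with them, such as B2m and Tap1. In the pregnant uterus, class I molecules are also ligands of receptors on uterine NK-cells.

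Of the 10 genes, 7 lie in the H2 complex on chromosome 17 (GRCm38) and 3 lie elsewhere. Tapbp (33915899 to 33929292) and H2-K1 (33996017 to 34000347) lie at its near end. Psmb9 (34181987 to 34187764), Tap1 (34187553 to 34197225), Psmb8 (34197721 to 34201454) and Tap2 (34203527 to 34216321) follow each other within 34335 bases. H2-D1 (35262730 to 35267499) starts 1262382 bases beyond the end of H2-K1. B2m lies on chromosome 2 (122147686 to 122153083), Nlrc5 on chromosome 8 (94434356 to 94527272) and Psmb10 also on chromosome 8 (105935735 to 105938444). Psmb9 and Tap1 are read in opposite directions and overlap by 212 bases, and the counts were made by strand. A pair of reads that fitted several genes or places was not counted, which could lower the counts of the heavy chain genes. Of all windows of 100 bases in the annotated H2-D1 transcripts, 3.59% also occur in transcripts of another gene, among them H2-Q6, H2-Q7 and H2-T23. For H2-K1 the share was 0.957%, for Tapbp 0.0775%, and the other 7 genes shared no such window.

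The start regions of the heavy chain genes, of B2m, and of the Tap1 and Psmb9 pair are shown because these genes hold the largest differences described below or share 1 stretch of DNA. RefSeq's table for GRCm38.p6 held a window of 250 bases before to 50 bases after the start site for 8 of the 10 genes, and none was used for Tap2 and Nlrc5. Capitals mark matches on either strand to 5 motifs: CCAAT (the NF-Y box), TGACG (the core of a CREB/ATF site), GGGATTCC (a Rel site), TTCNNNGAA (a STAT site), and GAAA repeated after any 2 bases (an interferon response element). The windows are chr17:34000298-34000597 on the minus strand for H2-K1, chr17:35262844-35263143 on the plus strand for H2-D1, chr2:122147437-122147736 on the plus strand for B2m, and chr17:34187306-34187605 on the plus strand for Tap1.
H2-K1: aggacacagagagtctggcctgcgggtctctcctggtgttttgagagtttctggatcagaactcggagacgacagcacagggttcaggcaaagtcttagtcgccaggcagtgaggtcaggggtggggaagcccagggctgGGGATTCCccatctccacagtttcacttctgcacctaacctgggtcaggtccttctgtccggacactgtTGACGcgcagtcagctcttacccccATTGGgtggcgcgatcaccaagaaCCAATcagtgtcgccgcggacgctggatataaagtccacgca
H2-D1: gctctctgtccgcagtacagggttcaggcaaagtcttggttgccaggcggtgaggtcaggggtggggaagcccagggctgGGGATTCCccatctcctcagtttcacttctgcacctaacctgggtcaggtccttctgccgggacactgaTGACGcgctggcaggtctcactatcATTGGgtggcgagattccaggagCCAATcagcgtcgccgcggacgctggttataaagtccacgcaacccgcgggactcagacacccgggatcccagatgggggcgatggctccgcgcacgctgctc
B2m: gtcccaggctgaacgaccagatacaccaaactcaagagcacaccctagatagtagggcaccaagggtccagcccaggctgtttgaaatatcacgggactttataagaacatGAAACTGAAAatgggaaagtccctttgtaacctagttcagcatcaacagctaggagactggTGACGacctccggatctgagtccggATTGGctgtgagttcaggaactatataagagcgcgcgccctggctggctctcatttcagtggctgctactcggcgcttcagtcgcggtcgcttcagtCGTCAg
Tap1: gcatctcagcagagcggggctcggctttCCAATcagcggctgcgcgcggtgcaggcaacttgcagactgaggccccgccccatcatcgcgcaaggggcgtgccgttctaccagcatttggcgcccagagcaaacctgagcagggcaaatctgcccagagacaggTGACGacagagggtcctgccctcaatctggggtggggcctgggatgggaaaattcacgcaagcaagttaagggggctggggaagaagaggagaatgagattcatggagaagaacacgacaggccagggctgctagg

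Both heavy chain windows held 4 matches in the same order, a Rel site, a CREB/ATF core and 2 NF-Y boxes on opposite strands. The first letters of neighbouring matches were 69, 25 and 24 bases apart in H2-K1 and 69, 25 and 23 bases apart in H2-D1. The B2m window held the single match to the interferon response element, as spelled above, among the 8 genes, beside 1 NF-Y box and 2 CREB/ATF cores. Elements spelled otherwise were not searched for, so the other windows may hold such elements. The Tap1 window shares 275 bases with that of Psmb9 and held 1 NF-Y box and 1 CREB/ATF core. Among all 32817 promoter windows of the table, 37.4% held an NF-Y box, 20.8% a CREB/ATF core, 8.29% a STAT site, 3.43% an interferon response element and 1.06% a Rel site. Of the 8 genes, 6 held an NF-Y box, 5 a CREB/ATF core, 2 a Rel site and 1 a STAT site. A match describes the letters of the window and is no evidence that a factor binds there.

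Total counts lay between 33286390 and 41041299 read pairs per library. A floor of 3 counts, which covers counting error only, was at most 0.0901 CPM. The Qa-2 genes were nearly absent from both Qa-2- libraries, with 3 and 3 counts of H2-Q6 against 4204 and 1192 counts in WT, and with 4 and 2 counts of H2-Q7 against 6318 and 1251 counts. Uterine genes were present in all libraries, among them the progesterone receptor gene Pgr at 175 to 280 normalized CPM. The yolk sac gene Afp had 13253 counts in Qa-2- replicate 1 against 158 to 1268 counts in the other libraries, and the placental gene Psg21 had 308 counts in WT replicate 2 and 0 counts elsewhere.

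All 10 genes had a higher mean level in WT than in Qa-2- uteri, but no difference passed the test across all genes. Log2 fold changes, WT relative to Qa-2-, ran from 0.24 for Tap2 to 1.33 for B2m, with a median of 0.54 against 0.01 over all genes tested. With edgeR's quasi-likelihood test, an adjusted p under 0.05 was reached by 0 of these 10 genes and by 0% of all genes tested in either direction. The smallest adjusted p of this test over all genes was 0.170. H2-Q6 and H2-Q7, nearly absent from Qa-2- uteri, were not called either. A missing call therefore does not show that a gene was alike in both groups. At an unadjusted p under 0.05 there was 1 gene, B2m, which was higher in WT, where 8.09% of all genes tested were higher in WT and 7.09% were higher in Qa-2- uteri. DESeq2's Wald test called the same gene, with an adjusted p of 0.0256, and called 2.79% of all genes tested as higher in WT and 2.04% as higher in Qa-2- uteri. In 6 genes (B2m, Tap2, Tapbp, Psmb8, Psmb9 and Nlrc5) both WT libraries lay above both Qa-2- libraries, an order that 25.4% of all genes tested had. None of the 10 genes had the opposite order, which 24.5% of all genes tested had. The median log2 fold change of the set was 0.24 without WT replicate 1, 0.70 without WT replicate 2, 0.31 without Qa-2- replicate 1 and 0.84 without Qa-2- replicate 2.

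The spread between mice of a group was large for part of the set. For 9 of the 10 genes the highest library was WT replicate 1, and Tapbp was highest in WT replicate 2. All 10 genes were lowest in Qa-2- replicate 1. Over all genes tested, 24.03% were highest in WT replicate 1 and 21.3% were lowest in Qa-2- replicate 1. The position of these libraries was noticed after the values were seen and has no test.

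**Figure D1:**
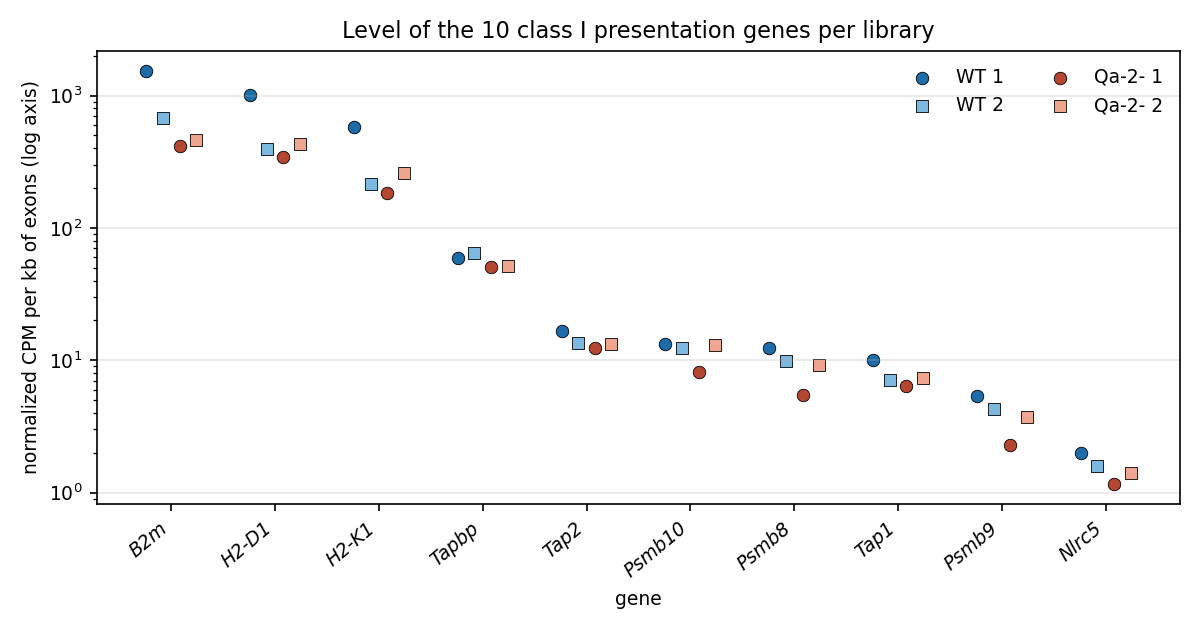
Level of each of the 10 genes in each of the 4 libraries, as normalized CPM per kb of merged exons on a log axis, with genes in order of their mean level and 1 point per library. B2m, H2-D1 and H2-K1 lie above 180 normalized CPM per kb in all 4 libraries, and WT replicate 1 stands above the other 3 libraries in these genes.

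Per length, B2m and the heavy chain genes had the highest levels of the set and Nlrc5 the lowest in each of the 4 libraries. B2m had 417 to 1523 normalized CPM per kb of merged exons over the 4 libraries, H2-D1 had 342 to 1010 and H2-K1 had 183 to 577. The ranges of these genes overlapped across libraries, but within each of the 4 libraries B2m was above H2-D1 and H2-D1 above H2-K1. Tapbp followed with 50.4 to 64.1 normalized CPM per kb, apart from H2-K1 above and Tap2 below it. Tap2 (12.3 to 16.6), Psmb10 (8.18 to 13.3), Psmb8 (5.46 to 12.4) and Tap1 (6.37 to 10.1) overlapped with their neighbours in this order, and the order of Psmb8 over Tap1 held in 3 of the 4 libraries. Psmb9 had 2.30 to 5.40 and Nlrc5 had 1.17 to 2.002 normalized CPM per kb, and neither overlapped with its neighbours in this order. Merged exons count every annotated transcript of a gene, so that the level of a gene with long minor transcripts is understated.

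The heavy chain genes had a higher mean in WT uteri, which rested on 1 WT library. H2-K1 had 1695 and 626 normalized CPM in WT replicates 1 and 2, and 538 and 766 normalized CPM in Qa-2- replicates 1 and 2. H2-D1 had 2604 and 1024 normalized CPM in WT, and 881 and 1113 normalized CPM in Qa-2- uteri. In both genes WT replicate 2 lay between the Qa-2- libraries, so that the groups overlapped. The mean of H2-K1 was 1161 ± 756 normalized CPM in WT (SD, n = 2) and 652 ± 161 in Qa-2- uteri (SD, n = 2), which gave a log2 fold change of 0.83 (standard error 0.53, edgeR adjusted p = 0.487). The mean of H2-D1 was 1814 ± 1117 normalized CPM in WT and 997 ± 164 in Qa-2- uteri, or 0.86 as a log2 fold change (standard error 0.51, adjusted p = 0.464). Without WT replicate 1 these values were -0.08 for H2-K1 and 0.01 for H2-D1. Without WT replicate 2 they were 1.38 in both genes, and DESeq2, which called neither gene with all 4 libraries, then gave adjusted p-values of 0.0027 for H2-K1 and 0.0011 for H2-D1. Which H2-K1 and H2-D1 alleles the Qa-2- strain carries is not given in the sources used here, and whether its reads align to the C57BL/6J reference as well as those of WT was not tested.

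WT replicate 1 exceeded WT replicate 2 by 2.71 times in H2-K1 and by 2.54 times in H2-D1, and 3.40% and 4.02% of all genes tested differed more between these mice. The ratio of the heavy chain genes did not differ beyond the spread between mice. H2-K1 over H2-D1, per length, was 0.572 and 0.537 in WT and 0.536 and 0.604 in Qa-2- uteri. The group means were 0.554 ± 0.0248 and 0.570 ± 0.0480 (SD, n = 2 each).

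B2m, which encodes the shared light chain, had the largest difference of the set. It had 1310.1 and 586 normalized CPM in WT replicates 1 and 2, and 359 and 397 normalized CPM in Qa-2- replicates 1 and 2. Both WT libraries lay above both Qa-2- libraries, and WT replicate 1 was 2.23 times WT replicate 2. The mean of 948 ± 512 normalized CPM in WT (SD, n = 2) was 2.51 times the mean of 378 ± 26.9 in Qa-2- uteri (SD, n = 2), or 1.33 as a log2 fold change (standard error 0.43, edgeR adjusted p = 0.294). For B2m the fit without WT replicate 1 gave a log2 fold change of 0.61, and the fits without 1 of the other libraries gave 1.25 to 1.79. The call by DESeq2 was lost without WT replicate 1 (adjusted p = 0.336), without Qa-2- replicate 1 (adjusted p = 0.132) and without Qa-2- replicate 2 (adjusted p = 0.261), and it held without WT replicate 2 (adjusted p = 1.2e-06). In edgeR's fits under other settings the adjusted p of B2m lay between 0.115 and 0.829.

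Relative to the heavy chains, B2m was higher in both WT libraries. B2m over the sum of H2-K1 and H2-D1, per length, was 0.960 and 1.12 in WT and 0.795 and 0.666 in Qa-2- uteri. The group means were 1.04 ± 0.111 and 0.730 ± 0.0907 (SD, n = 2 each), and the groups did not overlap. With 2 mice per group the exact permutation test (two-sided) cannot give a p below 0.333, which is the value found here (0.667 after Benjamini-Hochberg adjustment over 6 ratios). Without scaling by length the difference of this ratio was 0.098 in place of 0.308, again higher in WT. H2-Q6 and H2-Q7, whose products also pair with β2-microglobulin, are not part of this sum.

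**Figure D2:**
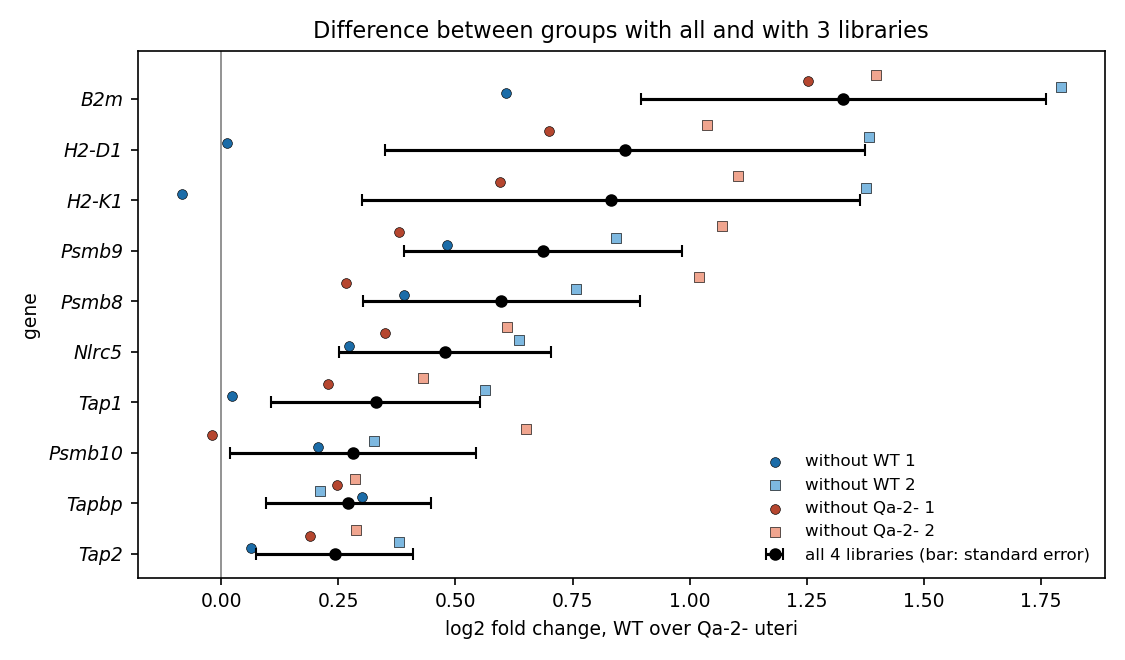
Log2 fold change (WT relative to Qa-2-) for each of the 10 genes, with all 4 libraries (black points, with the standard error as bars) and after leaving out 1 library at a time (coloured points). The values of H2-K1 and H2-D1 without WT 1 lie at -0.08 and 0.01, and that of Psmb10 without Qa-2- 1 lies at -0.019.

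With all libraries, the genes of peptide transport and loading had smaller log2 fold changes than B2m and the heavy chain genes. This contrast has no test, and without WT replicate 1 it did not hold against the heavy chain genes. Tap1 had 55.5 and 38.8 normalized CPM in WT and 34.9 and 40.1 normalized CPM in Qa-2- uteri, so that WT replicate 2 lay below Qa-2- replicate 2. Tap2 had 62.9 and 51.3 normalized CPM in WT against 46.6 and 49.9 normalized CPM. Tapbp had 215 and 233 normalized CPM in WT against 183 and 188 normalized CPM. In Tap2 and Tapbp the groups did not overlap, although on library totals alone Tap2 did (49.0 CPM in WT replicate 2 against 52.3 in Qa-2- replicate 2), and mice of a group differed by at most 1.08 times in Tapbp. The log2 fold changes were 0.33 for Tap1 (standard error 0.22, adjusted p = 0.512), 0.24 for Tap2 (standard error 0.17, adjusted p = 0.521) and 0.27 for Tapbp (standard error 0.18, adjusted p = 0.497), all by edgeR. Without WT replicate 1 they were 0.02 for Tap1, 0.06 for Tap2 and 0.30 for Tapbp, and without WT replicate 2 they were 0.56, 0.38 and 0.21 in the same order.

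The ratio between the TAP genes overlapped between groups. Tap1 over Tap2, per length, was 0.609 and 0.522 in WT and 0.516 and 0.555 in Qa-2- uteri. Tap1 and Psmb9, which start from the same stretch of DNA, did not have the same order of libraries. Psmb9 was lower in Qa-2- replicate 2 than in both WT libraries, and Tap1 was higher there than in WT replicate 2.

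The immunoproteasome genes were lowest in Qa-2- replicate 1. Psmb8, which encodes the subunit that replaces that of Psmb5, had 42.0 and 33.1 normalized CPM in WT and 18.47 and 31.2 normalized CPM in Qa-2- uteri. Psmb9, whose product replaces that of Psmb6, had 19.8 and 15.6 normalized CPM in WT and 8.41 and 13.6 normalized CPM in Qa-2- uteri. Psmb10, whose product replaces that of Psmb7, had 22.7 and 21.2 normalized CPM in WT and 13.9 and 22.2 normalized CPM in Qa-2- uteri. Psmb8 and Psmb9 did not overlap between groups, and Psmb10 overlapped. On library totals alone Psmb8 overlapped too, with 31.6 CPM in WT replicate 2 against 32.7 in Qa-2- replicate 2. Qa-2- replicate 2 was above Qa-2- replicate 1 by 1.69 times in Psmb8, 1.61 times in Psmb9 and 1.59 times in Psmb10, and 10.6% to 13.6% of all genes tested differed more between these mice.

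The log2 fold changes were 0.60 for Psmb8 (standard error 0.30, edgeR adjusted p = 0.399), 0.69 for Psmb9 (standard error 0.30, adjusted p = 0.354) and 0.28 for Psmb10 (standard error 0.26, adjusted p = 0.633). Without Qa-2- replicate 1 they were 0.27 for Psmb8, 0.38 for Psmb9 and -0.019 for Psmb10. Without Qa-2- replicate 2 they were 1.02, 1.07 and 0.65 in the same order.

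With all libraries, the constitutive partners of these subunits had smaller log2 fold changes, of -0.07 for Psmb5, 0.05 for Psmb6 and 0.14 for Psmb7. Their standard errors were 0.32, 0.20 and 0.18 in the same order, and this contrast of fold changes has no test of its own. Psmb5 had 128 and 86.4 normalized CPM in WT and 85.7 and 139 in Qa-2- uteri, with overlap. As a share of each pair, per length, Psmb8 took 8.05% and 9.25% in WT and 5.42% and 5.63% in Qa-2- uteri. Psmb9 took 9.62% and 7.94% of its pair in WT and 5.24% and 6.25% in Qa-2- uteri. Psmb10 took 29.9% and 31.1% in WT and 25.2% and 30.96% in Qa-2- uteri. The shares of Psmb8 and Psmb9 did not overlap between the groups, with differences of 3.12 and 3.03 percentage points, and that of Psmb10 did. The exact permutation test (two-sided) gave p = 0.333 for Psmb8 and Psmb9, the smallest that this design allows, and p = 0.667 for Psmb10 (0.667, 0.667 and 0.8 after adjustment over the 6 ratios). A share moves with the exon length used, and without scaling by length the differences of Psmb8 and Psmb9 were 8.20 and 5.18 percentage points, again higher in WT.

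**Figure D3:**
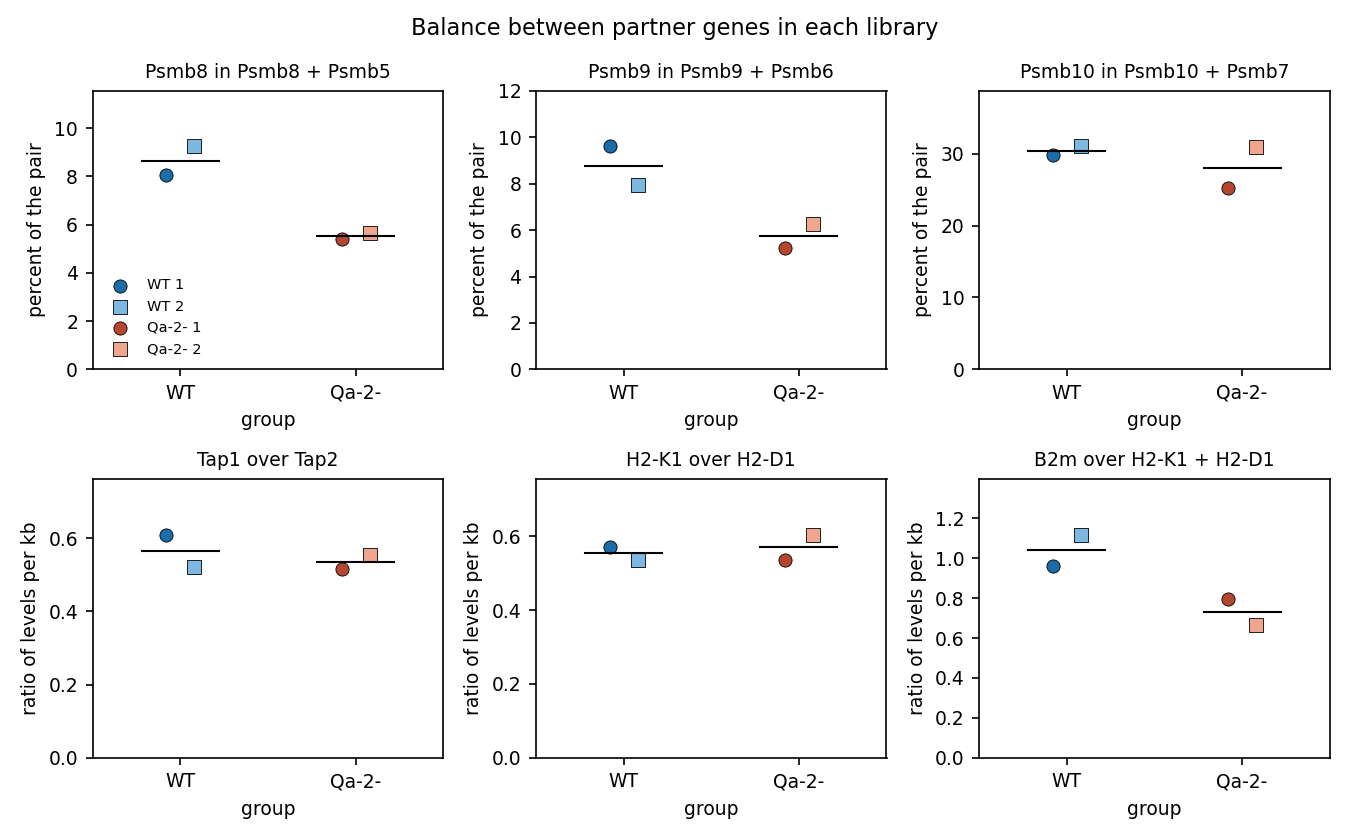
Balance between partner genes in each of the 4 libraries, as the percent that the inducible subunit takes of its pair (upper row) and as ratios of levels per kb (lower row), with black lines at the group means. Psmb8, Psmb9 and B2m stand higher relative to their partners in both WT libraries, and the other 3 panels overlap.

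The remaining 14 subunit genes of the proteasome core showed how far Qa-2- replicate 1 stood apart in related genes. Their summed level was 1494 and 1266 normalized CPM in WT and 1100.1 and 1406 in Qa-2- uteri, again lowest in Qa-2- replicate 1. Of these 14 genes 0 passed an adjusted p of 0.05 in either direction, 2 were higher in both WT libraries, 0 were higher in both Qa-2- libraries and 12 overlapped. Their median log2 fold change was 0.16, from -0.07 for Psmb5 to 0.26 for Psmb3. The activator genes Psme1 and Psme2 encode the interferon-inducible cap of the proteasome. Psme1 had 74.4 and 70.9 normalized CPM in WT and 53.1 and 75.8 in Qa-2- uteri, and Psme2 had 66.9 and 67.2 against 47.1 and 71.1, so that both overlapped and both were lowest in Qa-2- replicate 1.

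Nlrc5, the transactivator gene of the set, was expressed at a low level. It had 17.001 and 13.4 normalized CPM in WT and 9.94 and 11.9 normalized CPM in Qa-2- uteri, with no overlap. The log2 fold change came to 0.48 (standard error 0.23, edgeR adjusted p = 0.385), and leaving out single libraries gave 0.27 to 0.64. Among 22 other genes of class I transcription that were tested, 0 passed an adjusted p of 0.05, 4 were higher in both WT libraries, 5 were higher in both Qa-2- libraries and 13 overlapped, and the median log2 fold change was -0.0038. Irf1, a factor that acts on class I promoters, had 38.6 and 43.6 normalized CPM in WT and 33.4 and 38.2 in Qa-2- uteri, and the log2 fold change was 0.20. Jak2, a kinase of the interferon-γ receptor, had 212 and 123 normalized CPM in WT and 256 and 328 in Qa-2- uteri, and the log2 fold change was -0.80 (adjusted p = 0.338). Socs1, an inhibitor of that receptor's signal, had a log2 fold change of -0.79 (adjusted p = 0.354). Ifng itself did not reach 1 CPM, with 11 and 11 counts in WT and 3 and 1 counts in Qa-2- uteri, where the floor is 3 counts.

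Genes that act beside the set in peptide trimming and class I folding had both directions. Of 24 such genes 23 had an identifier under the symbol used and were tested, 0 passed an adjusted p of 0.05 in either direction, 5 were higher in both WT libraries, 5 were higher in both Qa-2- libraries and 13 overlapped. Their median log2 fold change was 0.06, from -0.32 for Lnpep, an aminopeptidase, to 0.41 for Sec61g, a subunit of the translocon. Calr, the chaperone calreticulin of the loading complex, had 1229 and 950 normalized CPM in WT and 960 and 961 in Qa-2- uteri. Erap1, which trims peptides in the endoplasmic reticulum, had 54.3 and 52.5 normalized CPM in WT and 49.4 and 44.5 in Qa-2- uteri, and the log2 fold change was 0.19.

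Cell type markers differed between the same libraries, and their part in the differences of the class I genes was not tested. All 8 endothelial markers were higher in both WT libraries. Their log2 fold changes ran from 0.62 for Emcn to 1.63 for Cdh5, and the median was 0.93. Their summed level was 1203 and 1073 normalized CPM in WT and 553 and 521 in Qa-2- uteri. None of the 8, so 0 genes, passed an adjusted p of 0.05 with edgeR, and all 8 had an unadjusted p under 0.05, while DESeq2 called 7. Of 24 leukocyte markers 14 passed the filter, 6 higher in both WT libraries, 3 higher in both Qa-2- libraries and 5 overlapping. Over all genes tested, 25.4% were higher in both WT libraries and 24.5% in both Qa-2- libraries. Flt3, 1 of the 3 markers higher in Qa-2- uteri, passed the filter only through those libraries. The summed level of all 24 was 444 and 599 normalized CPM in WT and 450 and 362 in Qa-2- uteri, with overlap, and the T-cell marker Cd3e stayed below the expression filter. Ptprc, the common leukocyte antigen gene, had 33.6 and 38.8 normalized CPM in WT and 44.6 and 46.0 in Qa-2- uteri. The macrophage gene Cd68 had 89.4 and 82.1 normalized CPM in WT against 53.0 and 48.2. The 7 epithelial markers summed to 1781 and 962 normalized CPM in WT and 2312 and 2390 in Qa-2- uteri. Their log2 fold changes lay between -1.18 for Foxa2, which passed the filter only through the Qa-2- libraries, and -0.62 for Krt18. The 6 smooth muscle markers summed to 22255 and 36021 normalized CPM in WT and 19663 and 10974 in Qa-2- uteri. H2-K1, H2-D1 and B2m together summed to 5609 and 2237 normalized CPM in WT and 1778 and 2276 in Qa-2- uteri.

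**Figure D4:**
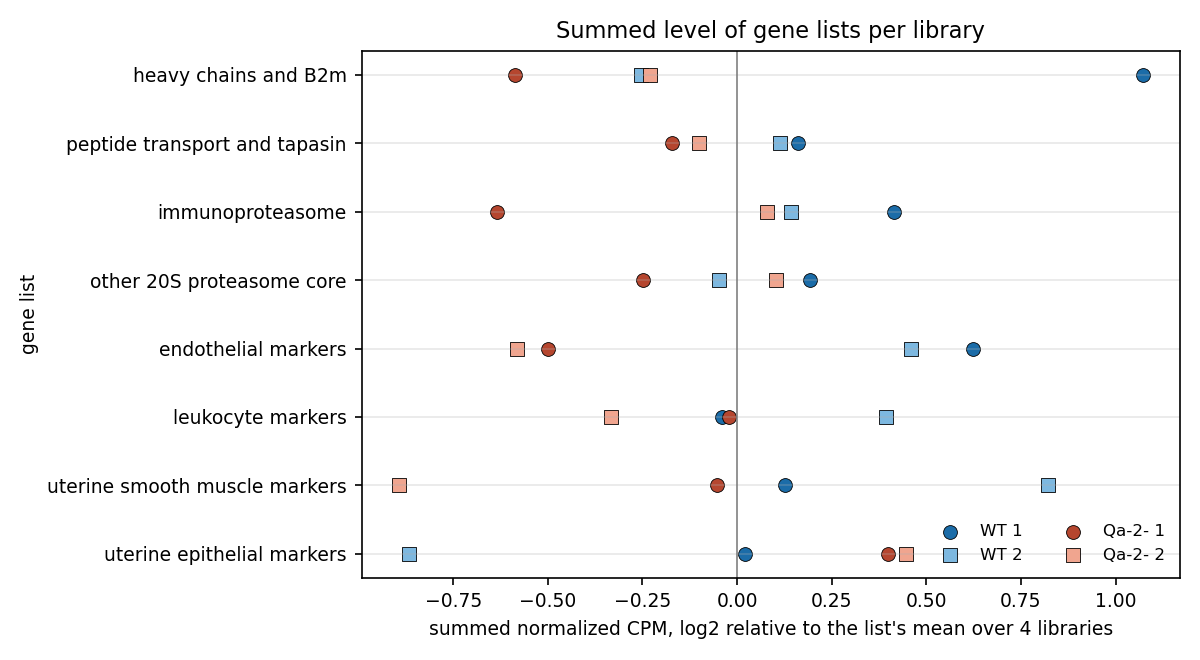
Summed normalized CPM of gene lists in each of the 4 libraries, on the log2 scale and relative to the mean of each list over the libraries. The heavy chains and B2m are highest in WT 1, the immunoproteasome genes are lowest in Qa-2- 1, and the endothelial markers are higher in both WT libraries.

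Over the 4 libraries, the mean profile of the 10 genes on the centred log2 scale took the values 0.57 and -0.0087 in the WT libraries and -0.46 and -0.094 in the Qa-2- libraries, replicate 1 first. Nlrc5 lay closest to this profile, at a Euclidean distance of 0.203, and B2m lay farthest, at 0.793. Among 10052 genes outside the set with a mean of at least 10 normalized CPM, the 5 closest were Pla2g16 (distance 0.0288), Slc31a2 (0.0788), Htatip2 (0.109), Coa6 (0.113) and Atp6v1g1 (0.114). With 4 libraries such likeness is a description of these mice.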

How the data were processed

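The authors sequenced 1 strand-specific library of poly(A) RNA from each mouse. Per the labels, reads were aligned with STAR 2.7.3a to GRCm38.p6. The deposited values are counts of read pairs per gene from featureCounts 2.0.0, for the reverse strand only, with both mates aligned at mapping quality 3 or above, and not normalized. The deposited gene lengths are the merged exons of each gene. Libraries were grouped by the strain stated in the labels. Symbols were matched for 55154 of 55421 identifiers.

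The filter kept genes at 1 CPM or more in at least 2 libraries, the rule worded in the study's methods, whose account of the RNA-seq data names no test. The number of genes kept is lower here than the one given there, for a reason not given in the sources used here. Counts were normalized by TMM (factors 0.957 to 1.05) and compared by edgeR 4.0.16 (glmQLFit, glmQLFTest) in R 4.3.3, with Benjamini-Hochberg adjustment over all 14492 genes. Normalized CPM are CPM on TMM-scaled library sizes, and the standard error is the log2 fold change divided by the square root of F. Alternatives were DESeq2 1.42.0, upper-quartile or no scaling, other filters, a replicate block and leaving out each library. The crossed block and DESeq2 with a library left out were added after seeing the data. The procedure was tested on simulated counts of 14492 genes, where edgeR called 23 of 100 genes changed by 1 on the log2 scale and 86 of 100 changed by 2, beside 28 unchanged genes, and DESeq2 called 42 and 87, beside 49 unchanged genes. Noise was drawn there for each gene on its own, so these counts do not give the recovery in the real libraries. On the real counts edgeR called 0 genes and so missed H2-Q6 and H2-Q7 as well. The 2 libraries of each group differed by more than sampling noise (chi-square per gene 188 for WT and 118 for Qa-2-). p-values of edgeR and DESeq2 rest on a spread between these mice that is shared in part across all genes. In a fit with 1 library left out, 1 group holds a single mouse and its own spread is not measured.

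The members and gene lists were chosen with earlier results of these data known. The naming rule took all members, a fixed group such as Psmb5 and Irf1, the 2 genes at either end of each other list by log2 fold change, and the 5 genes most like the members. Some genes under this rule are not reported here, and Afp, Psg21, Pgr and Cd3e were chosen after their values were seen.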

Additional observations from a re-analysis of the deposited data

How the results depend on the processing

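Over all genes, no gene was called in either direction, while DESeq2, which scales by its own size factors, made 404 calls toward WT and 296 toward Qa-2-, 1 of them a class I gene (B2m). Without a filter edgeR called 47 and 14 genes, and with the replicate block 2 and 0 genes, with no class I gene under either. The deviations of same-numbered libraries correlated at -0.40 over 14492 genes. With 2 mice per group this cannot show whether the numbers paired the mice. With the crossed block, which joined libraries of unlike number and was added after seeing the data, 0 genes were called. At an unadjusted p under 0.05 by edgeR there were 3625 genes with the crossed block, 2199 without a block and 1331 with the replicate block. Of the class I genes there were 4, 1 and 0 in this order. With each library left out in turn, 0 to 45 genes were called higher in WT (45 without WT replicate 2), the median log2 fold change of the class I genes lay between 0.24 and 0.84, and 6 to 10 of them did not overlap between groups (10 without WT replicate 2 or Qa-2- replicate 2, where 36.5% and 37.1% of all genes tested had every WT value above every Qa-2- value, against 25.4% with all libraries). Over all fits with a library left out, H2-K1 lay between -0.084 and 1.38 and Psmb10 between -0.019 and 0.65, and the other 8 genes stayed positive. Under the other alternatives all 10 log2 fold changes were positive. On library totals alone 4 class I genes were higher in both WT libraries (Tap2 and Psmb8 no longer were), as were 18.7% of all genes tested. A library left alone in its group was assumed to vary like the other group. For all these changes the cause was not tested.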
